A study of Mus musculus with 3 samples.

Results

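The 10 genes described here, Bcas1, Gpr17, Enpp6, Fyn, Itpr2, Sirt2, Lpar1, Rnf220, Slc24a2 and Prr5l, were taken by symbol from the 30559 genes counted in nuclei of differentiated neurosphere cultures, as a list of genes of the premyelinating oligodendrocyte. All 10 were found and all 10 had UMIs (unique molecular identifiers, the molecules counted by the assay) in each of the 3 libraries. The cultures came from neural stem cells of the subventricular zone of newborn mice, grown as free-floating neurospheres and then differentiated to day 15 in vitro. The first library is labelled control, the second CBPf/f and the third p300f/f, and each was a pool of about 15 cultures of which 16000 nuclei were loaded. In the second and the third, called the CBP and p300 libraries, the floxed gene, Crebbp or Ep300, was to be removed by a lentivirus that carries Cre fused to mCherry, while control cultures received a lentivirus with RFP. Nuclei of all 3 conditions were sorted by this red fluorescence. The labels give tamoxifen as the treatment of every sample, controls included, and the line of mice behind the control cultures is not stated. There was 1 library per condition, so no difference given here has a replicate check, no p-value was computed, and all intervals (95%) cover counting error only. Both comparisons use the same control library.

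Oligodendrocytes arise from precursors that carry the PDGF receptor Pdgfra. A precursor that leaves the cell cycle passes through a committed, premyelinating state, in which it extends branches but has not yet formed myelin, and then turns on the genes of the myelin sheath, such as Mog. Bcas1 and Enpp6 are widely used to mark the intermediate state, and Gpr17 is a receptor known for its brief appearance at the beginning of it.

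The control library held 4884 nuclei, the CBP library 3017 and the p300 library 4648, with medians of 3219, 4016 and 3902.5 UMIs. At most 7 cell barcodes were shared by any 2 libraries. Summed over exons and introns, Crebbp stood at 335 CPM (UMIs of a gene scaled to 1e+06 UMIs of the library or of the group of nuclei) in control and 369.5 CPM in the CBP library, and Ep300 at 114 CPM in control and 115 CPM in the p300 library, so these sums do not check the genotype labels. An astrocyte-like cluster of 1276 nuclei was made of control nuclei only, which bears on every comparison over all nuclei.

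Nuclei were clustered on variable genes from which the 10 genes had been left out, and clusters were named from lists of marker genes that hold none of the 10. Of 13 clusters, 3 carried the markers of the oligodendrocyte lineage. The precursor-like cluster met 8 of 8 precursor markers and held 1030 control, 328 CBP and 1766 p300 nuclei. The cluster called committed-like here met 8 of 10 markers of committed precursors and newly formed oligodendrocytes and held 419, 609 and 232 nuclei. The oligodendrocyte-like cluster met 9 of 9 myelin markers and held 161, 487 and 193 nuclei.

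The 10 genes did not share 1 peak. In each of the 3 libraries Bcas1, Gpr17, Enpp6, Fyn, Itpr2 and Sirt2 were highest in the committed-like cluster among these 3 clusters, whereas Rnf220, Slc24a2 and Prr5l were highest in the oligodendrocyte-like cluster. Lpar1 was high in both, and which of them was higher differed between libraries. For Rnf220, Slc24a2 and Prr5l the data therefore go against the name premyelinating: their levels in these cultures followed the myelin markers.

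**Figure D1:**
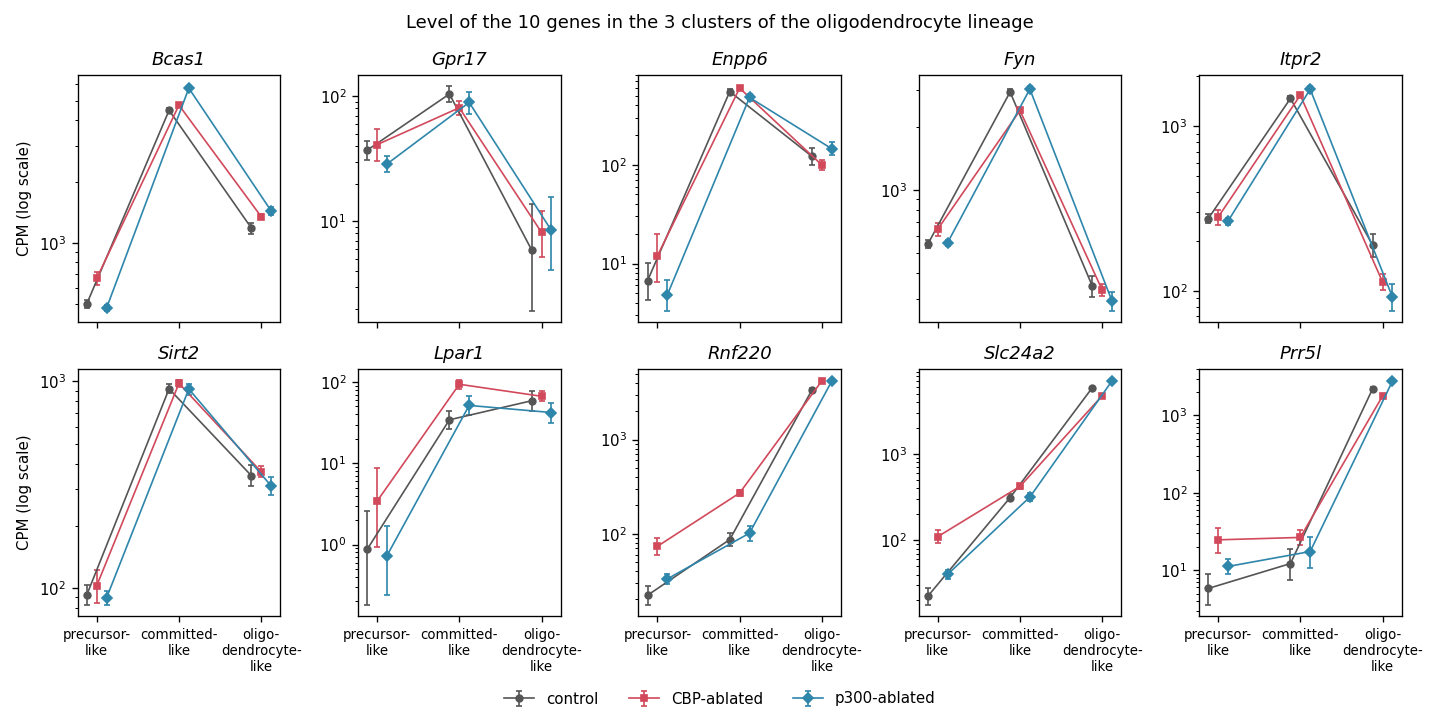
CPM on a log scale (vertical axes, which differ between panels) of each of the 10 genes in the precursor-like, committed-like and oligodendrocyte-like clusters, with 1 point per library and 95% Poisson intervals as bars. The 6 genes from Bcas1 to Sirt2 have a peak in the middle, and Rnf220, Slc24a2 and Prr5l rise to the right, with the CBP points of Rnf220 at 73.3 and 270.6 CPM above the other libraries in the first 2 clusters.

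Bcas1 (ENSMUSG00000013523, chr2:170346991-170427845 on the minus strand of GRCm38), a marker of early myelinating oligodendrocytes, had its peak in the committed-like cluster. It had 4478 CPM in the committed-like nuclei of control, 4748 CPM in those of the CBP library and 5751 CPM in those of the p300 library. In precursor-like nuclei it had 478 to 667 CPM and in oligodendrocyte-like nuclei 1181 to 1436 CPM over the 3 libraries, so it was already present before the peak and remained after it. Committed-like nuclei gave 66.8% of all Bcas1 UMIs in control, 66.9% in the CBP and 52.4% in the p300 library.

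Enpp6 (chr8:46986887-47096762, plus strand), which encodes a choline phosphodiesterase of newly forming oligodendrocytes, had the largest ratio of the 10 genes between committed-like and precursor-like nuclei in each library, with an interval that overlapped that of Lpar1. Its level there was 549 CPM in control, 595 CPM in the CBP and 478 CPM in the p300 library, against 6.69, 11.9 and 4.80 CPM in precursor-like nuclei. The log2 ratio of the committed-like over the precursor-like level was 6.36 in control (5.76 to 7.02), 5.64 in the CBP library and 6.64 in the p300 library. In oligodendrocyte-like nuclei Enpp6 was at 99.3 to 145 CPM, between the other 2 clusters.

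Fyn (chr10:39368855-39565381, plus strand), a Src-family kinase that acts downstream of axonal signals in oligodendrocyte differentiation, had 2951 CPM in committed-like nuclei of control, 2406 CPM in the CBP and 3048 CPM in the p300 library. Its level in precursor-like nuclei was 549 to 647 CPM, and in oligodendrocyte-like nuclei it was lower still, at 292 to 345 CPM. Itpr2 (chr6:146108299-146502223, minus strand), a receptor that releases calcium from the endoplasmic reticulum, followed the same course. It had 1468, 1537 and 1669.8 CPM in committed-like nuclei, in the order control, CBP, p300, 264 to 279.6 CPM in precursor-like and 91.9 to 189 CPM in oligodendrocyte-like nuclei. For both genes the oligodendrocyte-like level was thus below that of the precursor-like nuclei in each library.

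Sirt2 (chr7:28766735-28788661, plus strand), a deacetylase of tubulin found in myelin, had 920.2, 978 and 918 CPM in committed-like nuclei and 312 to 365 CPM in oligodendrocyte-like nuclei. Unlike Fyn and Itpr2 it stayed above its precursor-like level of 89.4 to 102 CPM. Gpr17, a G protein-coupled receptor, had 104, 80.7 and 89.0 CPM in committed-like nuclei. It had 28.6 to 40.9 CPM in precursor-like nuclei and 5.88 to 8.43 CPM in oligodendrocyte-like nuclei, where the 3 libraries held 5, 24 and 10 UMIs of it.

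The 3 genes of the oligodendrocyte-like cluster were at low levels in committed-like nuclei. Rnf220 (chr4:117271463-117497052, minus strand), a ubiquitin ligase, had 86.6, 270.6 and 101 CPM in committed-like nuclei against 3384, 4219.7 and 4186 CPM in oligodendrocyte-like nuclei. Slc24a2 (chr4:86983124-87230477, minus strand), a sodium, calcium and potassium exchanger, had 313, 421 and 317 CPM against 5916, 4769.7 and 7099 CPM. Prr5l (chr2:101714285-101883027, minus strand), a partner of the kinase complex mTORC2, had 12.2, 26.6 and 17.5 CPM against 2222, 1782 and 2773 CPM. The log2 ratio between the clusters ran from 3.50 for Slc24a2 in the CBP library to 7.51 for Prr5l in control, and for Rnf220 and Prr5l it was lowest in the CBP library as well, at 3.96 and 6.07.

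Lpar1 (chr4:58435255-58553898, minus strand), a receptor for lysophosphatidic acid, did not follow either course. It had 34.3 CPM in committed-like nuclei of control against 58.8 CPM in oligodendrocyte-like nuclei, a log2 ratio of 0.78 (0.21 to 1.35) towards the later cluster. In the CBP library the order was the opposite, with 93.8 CPM against 66.8 CPM and a log2 ratio of −0.49 (−0.76 to −0.22). In the p300 library the levels were 51.5 and 42.1 CPM, and the interval of −0.86 to 0.28 included 0. Precursor-like nuclei held 3, 4 and 5 UMIs of Lpar1 in the 3 libraries, so a level there was barely detectable at this depth.

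Outside the 3 lineage clusters the genes differed in how far they reached. Over the 26 sums of another cluster and a library with at least 50 nuclei, Bcas1 ran from 36.6 to 759 CPM, its highest value being in cluster 7 of the CBP library, which is led by Gpr149 and Syt1. Pdgfra was at 822 CPM there, against 793 CPM in precursor-like CBP nuclei. A cluster other than the 3 may thus still hold nuclei of the lineage. Fyn ran from 192 to 799.6 CPM and Itpr2 from 33.6 to 391 CPM, so these 2 kept a moderate level in many nuclei. Enpp6 stayed at or under 84.8 CPM and Prr5l at or under 57.9 CPM in these sums. Lpar1 reached 43.0 CPM in cluster 8 of the p300 library. Clusters other than the 3 gave 33.3% of all Lpar1 UMIs in control, 11.1% in the CBP and 40.9% in the p300 library.

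CPM were also divided by the length of the gene in the annotation, and Bcas1 and Sirt2 then led in all 3 libraries. In 3′ counts over exons and introns the relation of UMIs to gene length was not tested, and by CPM alone Bcas1 and Fyn led in control, at 707 and 692 CPM. Over all control nuclei Bcas1 had 8.75 CPM per kb (8.59 to 8.91) and Sirt2 8.45 CPM per kb (8.15 to 8.75), so their intervals overlapped. Fyn at 3.52 and Gpr17 at 3.28 CPM per kb also overlapped. Slc24a2 followed at 1.48 CPM per kb, and Rnf220, Itpr2, Prr5l and Enpp6 lay between 0.938 and 0.662. Lpar1 was last at 0.087 CPM per kb. In the CBP library Slc24a2, at 5.06 CPM per kb, and Rnf220, at 4.78 CPM per kb, stood above Fyn at 4.33 CPM per kb.

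At a finer resolution of the clustering, examined after the data were seen, the lineage clusters came apart and the 10 genes separated further. The committed-like nuclei gave a cluster of 658 nuclei led by Arhgap24 and Bmp4 and a cluster of 568 nuclei led by Gm32531 and Enpp6. By the same naming rule only the second was committed-like at this resolution, and the first met no marker list. With the 3 libraries together Gpr17 had 133 CPM in the first and 49.4 CPM in the second, while Enpp6 had 207 CPM in the first and 911 CPM in the second. Gpr17 and Enpp6 thus peaked in different finer clusters, and whether single nuclei held both was not tested. Lpar1 had 3.64 CPM in the first of these clusters and 130.1 CPM in the second.

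The same order held in each library. Gpr17 was higher in the Arhgap24-led cluster, with 140.1 against 61.2 CPM in control, 127 against 48.4 CPM in the CBP and 131 against 37.1 CPM in the p300 library. Enpp6 was higher in the Gm32531-led cluster, with 1037 against 244 CPM in control, 868 against 211 CPM in the CBP and 884 against 144 CPM in the p300 library. The Gm32531-led cluster made up 35.1% of committed-like control nuclei (30.5 to 39.9), 53.4% of CBP (49.3 to 57.4) and 41.4% of p300 nuclei (35.0 to 48.0). A comparison over the whole committed-like cluster therefore also compares these shares.

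The oligodendrocyte-like nuclei came apart into a cluster of 272 nuclei led by Thsd4 and 9630013A20Rik, a long noncoding RNA of newly formed oligodendrocytes, and a cluster of 568 nuclei led by Prr5l and D7Ertd443e. Rnf220 had 4263 CPM in the first and 3983 CPM in the second, and was therefore at full level in both. Slc24a2 had 3701 against 6371 CPM and Prr5l 760 against 2718 CPM, so both were higher in the second. Itpr2, with 308 against 34.2 CPM, and Lpar1, with 124 against 29.5 CPM, were lower in the second. No time was measured, and the order of these clusters is one of expression only.

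**Figure D2:**
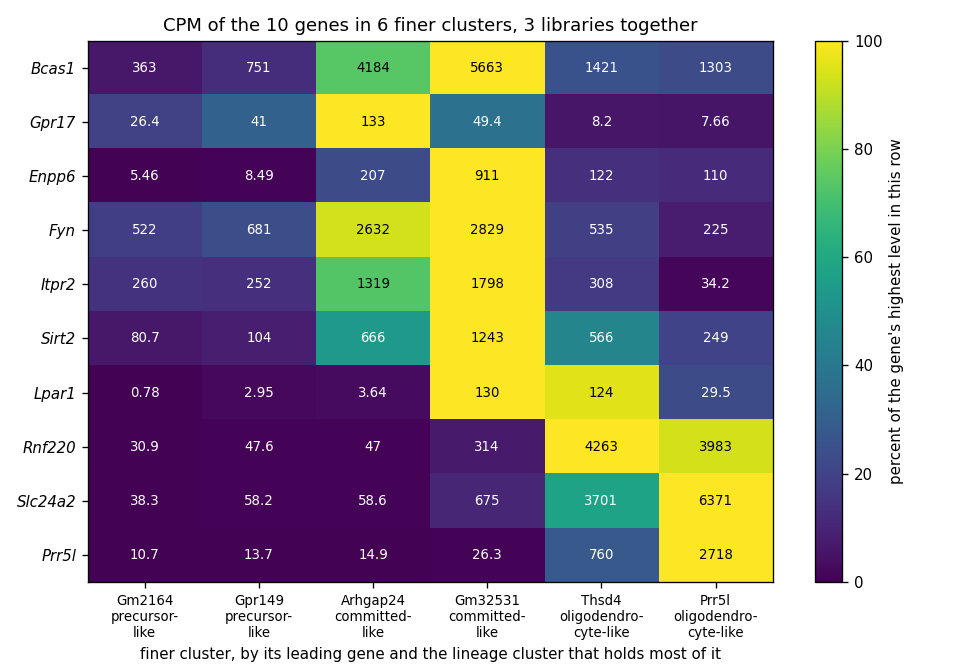
CPM of the 10 genes (rows) in 6 finer clusters (columns, each named by its leading gene and the lineage cluster that holds most of its nuclei), over the 3 libraries together, with colour as percent of the highest level in the row. Bcas1, in the first row, is highest in the Gm32531-led cluster, at 5663 CPM. From the row of Gpr17 down, the highest value stays or moves to the right, from Gpr17 at 133 CPM in the Arhgap24-led cluster to Prr5l at 2718 CPM in the Prr5l-led cluster.

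Promoter sequences are shown because the genes fell into an earlier and a later group, and were searched for letters of motifs of oligodendrocyte transcription factors. RefSeq (GRCm38.p6) windows of 250 bases before to 50 after a transcription start were at hand for 8 of the 10 genes, 13 windows in all. Bcas1 and Gpr17 were named only. The core letters bound by SOX proteins such as SOX10, ACAAAG on either strand, were in 4 of the 13 windows, those of Lpar1, Slc24a2 and Prr5l, and in 18.7% of 32851 mouse promoters. The MYRF letters CTGGCAC or CTGGTAC were in 3 of the 13 windows, those of Lpar1 and Slc24a2, and in 7.10% of all promoters. The E-box CAGCTG was in 2 windows, both of Prr5l, and in 16.3% of all promoters. The upstream parts of 3 windows are printed here, 5′ to 3′, to show windows with and without such letters, the letters in capitals. No window of the earlier genes Enpp6, Fyn, Itpr2 and Sirt2 held any of these letters. Of the later genes, the windows of Slc24a2 and the first 2 of Prr5l held some. Rnf220 and the last window of Prr5l held none of them. Lpar1, which is in neither group, held 2 of the 4 windows with SOX letters. Whether the letters differ between the groups was not tested in these 13 windows. The printed parts lie at chr8:46986637-46986886 on the plus strand for Enpp6, chr4:87230541-87230790 on the minus strand for Slc24a2 and chr2:101883028-101883277 on the minus strand for Prr5l.
Enpp6: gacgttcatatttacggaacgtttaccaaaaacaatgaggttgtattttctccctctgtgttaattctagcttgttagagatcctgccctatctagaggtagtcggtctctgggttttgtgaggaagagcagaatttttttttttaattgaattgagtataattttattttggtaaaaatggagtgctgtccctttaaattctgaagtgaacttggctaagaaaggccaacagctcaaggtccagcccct
Slc24a2: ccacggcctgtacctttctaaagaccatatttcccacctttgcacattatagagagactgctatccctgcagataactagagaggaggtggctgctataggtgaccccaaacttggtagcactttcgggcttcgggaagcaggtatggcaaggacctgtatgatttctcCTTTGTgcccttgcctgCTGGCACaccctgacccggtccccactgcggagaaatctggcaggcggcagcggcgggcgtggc
Prr5l: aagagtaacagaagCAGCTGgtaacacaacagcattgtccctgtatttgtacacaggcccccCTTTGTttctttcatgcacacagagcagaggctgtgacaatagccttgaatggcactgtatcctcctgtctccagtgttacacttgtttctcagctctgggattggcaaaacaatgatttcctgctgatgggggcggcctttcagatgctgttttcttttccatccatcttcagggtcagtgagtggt
In the Slc24a2 window the SOX letters, read on the other strand, and the MYRF letters lie in the same stretch, and in the Prr5l window the E-box precedes the SOX letters. A match of letters is a description and not a binding site.

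How many nuclei stood at each stage was read from 4 gate genes, Pdgfra, Bcas1, Enpp6 and Mog, a nucleus counting as positive with at least 1 UMI. In control 29.6% of nuclei had a UMI of Pdgfra, 32.4% of Bcas1, 7.31% of Enpp6 and 4.87% of Mog. In the CBP library the shares were 27.4%, 66.2%, 19.99% and 20.5%, and in the p300 library 51.5%, 39.0%, 5.96% and 5.83%. The CBP library thus had more nuclei positive for Bcas1, Enpp6 and Mog, and the p300 library more positive for Pdgfra.

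These shares depend on depth, which was lowest in control. With every nucleus thinned to 1500 UMIs, which left 4636, 2922 and 4513 nuclei, Bcas1 was found in 24.4% of control nuclei (23.2 to 25.7), 51.6% of CBP nuclei (49.7 to 53.4) and 26.3% of p300 nuclei (25.1 to 27.7). Enpp6 was found in 5.00%, 13.005% and 3.48% of them, and Mog in 3.36%, 13.5% and 3.83%. Nuclei outside the lineage clusters had such UMIs too, and the part of free RNA in them was not tested. In cluster 1, an unnamed cluster led by Anxa3 and Vgll3 that met no marker list, 7.43% of thinned control nuclei (median depth of the cluster 3818 UMIs), 17.0% of CBP and 6.33% of p300 nuclei had a Bcas1 UMI. In committed-like nuclei (median 4414 UMIs) these shares were 90.8%, 96.7% and 97.0%.

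The gates overlapped, so each nucleus was also counted once, at the last gate it was positive for in the order Pdgfra, Bcas1, Enpp6, Mog. Enpp6 was the last gate of 5.84% of control nuclei (5.19 to 6.53), 14.8% of CBP nuclei (13.6 to 16.1) and 4.15% of p300 nuclei (3.60 to 4.77). Of these nuclei 68.8%, 71.1% and 54.4% lay in the committed-like cluster. Bcas1 as last gate was less specific. In control 43.1% of such nuclei were precursor-like and 14.2% committed-like, and in the CBP library 18.3% were precursor-like, 19.9% committed-like and 20.1% of cluster 7.

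**Figure D3:**
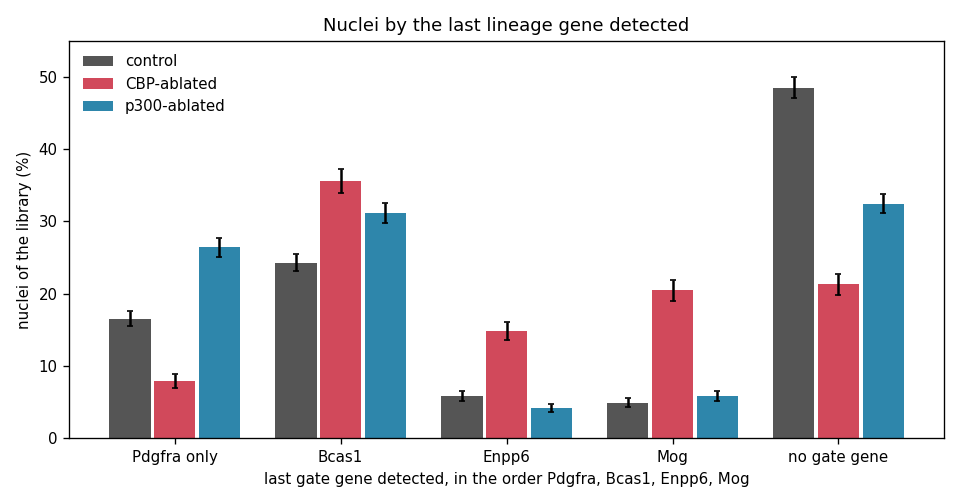
Share of nuclei of each library in percent (vertical axis), by the last gate gene detected in the order Pdgfra, Bcas1, Enpp6, Mog, with 95% binomial intervals as bars. The CBP library has the highest shares at Bcas1 (35.6%), Enpp6 (14.8%) and Mog (20.5%), and the p300 library has the highest share at Pdgfra (26.4%).

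Over all nuclei, all 10 genes were higher in the CBP library than in control, and 6 of the 10 by at least 2-fold, where 2.89% of all genes with at least 100 UMIs were. The median log2 ratio of the 10 was 1.16, and that of all genes 0.06. Rnf220 differed most, with 212 CPM in control and 1077 CPM in the CBP library, a log2 ratio of 2.35 (2.29 to 2.40). Lpar1 went from 10.3 to 41.1 CPM, Slc24a2 from 366 to 1251 CPM and Prr5l from 129 to 436 CPM, with log2 ratios of 1.997, 1.77 and 1.76. Enpp6 went from 72.8 to 164 CPM and Bcas1 from 707 to 1572 CPM, both with log2 ratios just past 1, at 1.17 and 1.15. Without the astrocyte-like cluster of control nuclei these 2 were at 0.80 and 0.78 and the median of the 10 at 0.79.

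The other 4 genes lay under 2-fold in the CBP library. Sirt2 had 185 CPM in control and 356 CPM in it, a log2 ratio of 0.94 (0.88 to 1.01), Itpr2 333 and 464 CPM, Gpr17 21.8 and 30.4 CPM, and Fyn 692 and 851 CPM. The log2 ratios of Gpr17, Itpr2 and Fyn were 0.48, 0.48 and 0.30. The genes with a peak in the oligodendrocyte-like cluster thus had larger ratios than those with a peak in the committed-like cluster.

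In the p300 library none of the 10 was 2-fold higher or lower than in control, where 0.694% of all genes were 2-fold higher and 2.12% 2-fold lower, and their median log2 ratio was −0.13 against −0.03 for all genes. Rnf220 at 299 CPM, Slc24a2 at 504 CPM and Prr5l at 187 CPM were above control, with log2 ratios of 0.50, 0.46 and 0.54. Enpp6, at 43.4 CPM, was the furthest below, with a log2 ratio of −0.74 (−0.87 to −0.61). The ratios of Bcas1, Gpr17, Fyn, Itpr2 and Sirt2 lay between −0.33 and −0.09, that of Gpr17 with an interval of −0.39 to 0.04. For Lpar1, with 10.2 CPM, no difference was detectable at this depth (−0.32 to 0.30). Without the astrocyte-like cluster of control nuclei Enpp6 was past 2-fold lower, at −1.11, Lpar1 was at −0.35 and Slc24a2 at 0.09.

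Fewer nuclei of a type and less RNA per nucleus cannot be told apart in sums over all nuclei, so the control level of each cluster was weighted by the share of UMIs that the cluster had in the ablated library. For the CBP library this gave log2 ratios of 0.48 for Gpr17, 0.47 for Itpr2 and 1.09 for Enpp6, against measured ratios of 0.48, 0.48 and 1.17. For these 3 genes the difference over all nuclei was close to that of the cluster shares alone. Bcas1 and Sirt2 came to 0.97 and 0.83, below the measured 1.15 and 0.94, and Fyn to 0.47, above the measured 0.30. Slc24a2 and Prr5l came to 1.9996 and 2.03, above the measured 1.77 and 1.76. Rnf220 and Lpar1 came to 1.96 and 1.27, below the measured 2.35 and 1.997, and so were higher than the cluster shares gave. In the p300 library the shares alone gave −0.55 for Enpp6 and between 0.18 and 0.21 for Rnf220, Slc24a2 and Prr5l. There Gpr17 came to 0.05 against a measured −0.17 and Bcas1 to −0.26 against −0.09. Fyn, Itpr2, Sirt2 and Lpar1 came close to their measured ratios.

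**Figure D4:**
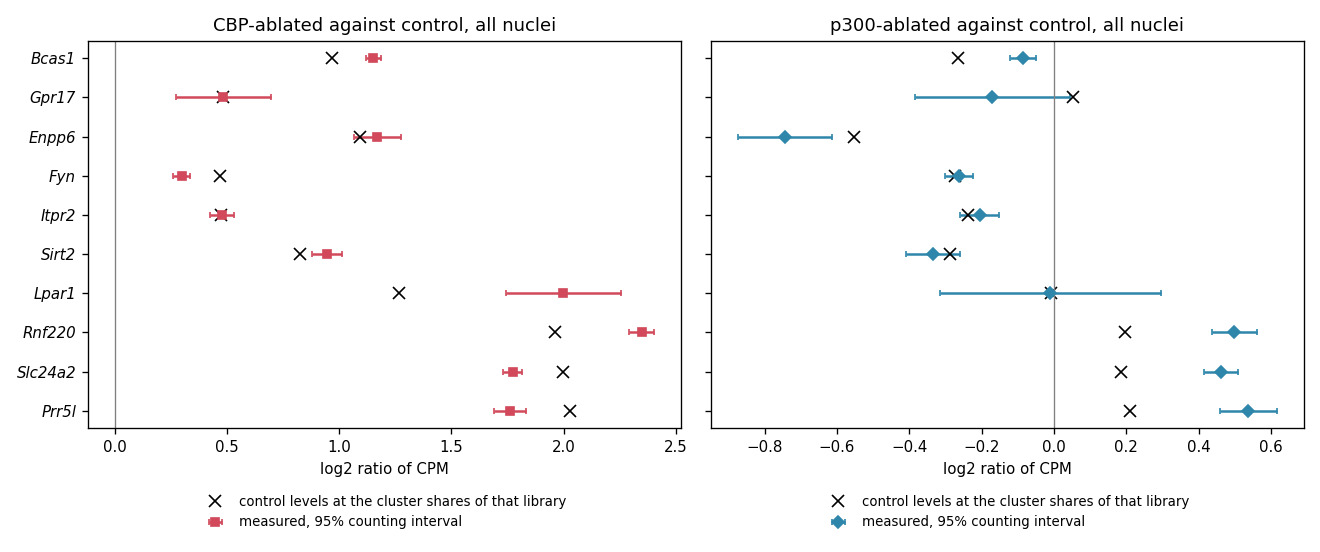
Log2 ratio of CPM to control over all nuclei (horizontal axes, of different range) for the 10 genes in the CBP (left) and p300 (right) library, with 95% counting intervals, and crosses for control levels weighted by the cluster shares of the ablated library. In the left panel the measured points of Lpar1 and Rnf220 lie to the right of their crosses, and those of Slc24a2 and Prr5l to the left.

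Within the committed-like cluster, 2 of the 9 genes with at least 100 UMIs were 2-fold higher in the CBP library than in control, and 1.04% of all genes were. Rnf220 had 149 UMIs or 86.6 CPM in control, 764 UMIs or 270.6 CPM in the CBP and 116 UMIs or 101 CPM in the p300 library. Its log2 ratio was 1.64 (1.39 to 1.91) in the CBP library, and the p300 library was near control. Lpar1 had 59, 265 and 59 UMIs, or 34.3, 93.8 and 51.5 CPM. Its log2 ratio was 0.59 (0.04 to 1.13) in the p300 and 1.45 (1.04 to 1.89) in the CBP library. Prr5l had 21 and 75 UMIs and a log2 ratio of 1.12 (0.41 to 1.90), did not reach 100 UMIs, and was at −0.28 with 5% of the library profile subtracted as free RNA.

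The 6 genes with their peak in the committed-like cluster stayed within 2-fold of control there. In the CBP library Bcas1 had a log2 ratio of 0.08, Enpp6 of 0.12, Itpr2 of 0.07 and Sirt2 of 0.09. Fyn was at −0.29 (−0.35 to −0.24) and Gpr17 at −0.37 (−0.65 to −0.07). Over 8 other settings the lowest CBP ratios of Bcas1, Enpp6, Itpr2 and Sirt2 were −0.17, −0.26, −0.05 and −0.08. In both finer clusters of committed-like nuclei Enpp6 was lower in the CBP library than in control. In the p300 library Bcas1 was at 0.36 (0.31 to 0.41), Itpr2 at 0.19 (0.10 to 0.27) and Enpp6 at −0.20 (−0.35 to −0.05).

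Other late genes were read in the same nuclei. Of the 9 myelin genes 6 had at least 100 UMIs there, and 1 of them, Mobp, was 2-fold higher in the CBP library, with 8.71 CPM in control and 38.6 CPM in it and a log2 ratio of 2.15 (1.36 to 3.03). Mag had 0.54, and the median over the list was 0.52. Mog in committed-like nuclei was 32.5 CPM in control and 31.5 CPM in the CBP library, a log2 ratio of −0.05 (−0.54 to 0.46), and Slc24a2 had a ratio of 0.43 (0.28 to 0.58). In CPM, Rnf220 was 184 higher and Slc24a2 109 higher than in control. In cluster 1, which met no marker list, Rnf220 was 24.1 CPM and Slc24a2 63.3 CPM higher. The difference of Rnf220 was thus the larger of the 2 in committed-like nuclei and the smaller in cluster 1. Other clusters not among the 3 lineage clusters differed in this order. In cluster 8, led by Cdkn1a and Btg2, Rnf220 was 110 CPM and Slc24a2 93.3 CPM higher. In the microglia-like cluster they were 67.6 and 153 CPM higher. The part of free RNA in the committed-like levels was not tested beyond subtracting 10% of the library profile, which left Rnf220 at 1.32. In thinned committed-like nuclei 7.47% of control (5.13 to 10.4), 16.5% of CBP (13.6 to 19.7) and 6.90% of p300 nuclei had a Rnf220 UMI, against 5.63%, 7.03% and 5.82% in cluster 1.

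The finer clusters gave the same direction for Rnf220 in both clusters of committed-like nuclei. In the Arhgap24-led cluster it had 29.3 CPM in control, 69.6 CPM in the CBP and 31.9 CPM in the p300 library, and the CBP log2 ratio was 1.25 (0.61 to 1.93). In the Gm32531-led cluster it had 172, 413 and 187 CPM and a CBP log2 ratio of 1.26 (0.98 to 1.56). In the Arhgap24-led cluster Slc24a2 and Mog were higher too, with log2 ratios of 1.05 (0.51 to 1.62) and 1.72 (0.49 to 3.16) from 7 and 28 UMIs of Mog. Mog in the Gm32531-led cluster was lower, with 71.5 CPM in control and 36.9 CPM in the CBP library, a log2 ratio of −0.95 (−1.52 to −0.38). Lpar1 in the Gm32531-led cluster had 81.7, 155 and 113 CPM, and its log2 ratio of 0.93 (0.51 to 1.37) no longer reached 2-fold. Slc24a2 there had a ratio of −0.14 (−0.29 to 0.02).

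In the precursor-like cluster 2 of the 7 genes with at least 100 UMIs were 2-fold higher in the CBP library, against 0.418% of all genes. Slc24a2 had 22.4 CPM in control, 110.0 CPM in the CBP and 40.1 CPM in the p300 library, with log2 ratios of 2.30 (1.88 to 2.72) and 0.84 (0.47 to 1.23). Rnf220 had 22.1, 73.3 and 33.0 CPM, with log2 ratios of 1.73 (1.27 to 2.19) and 0.58 (0.20 to 0.97), and the former was 0.75 with 5% of the library profile subtracted as free RNA. Under the same subtraction Slc24a2 moved the other way, to 3.53 in the CBP and 1.86 in the p300 library, and with 10% subtracted Rnf220 was at 1.71 in the p300 library. Prr5l had 20, 29 and 77 UMIs and a CBP ratio of 2.09. Mog moved with them, from 14 UMIs in control to 25 in the CBP library, a log2 ratio of 2.39 (1.39 to 3.44). In cluster 1 the same genes had CBP minus control differences of 63.3 CPM for Slc24a2, 24.1 CPM for Rnf220, 18.1 CPM for Prr5l and 14.9 CPM for Mog, against 87.6, 51.2, 18.9 and 17.2 CPM in precursor-like nuclei. The part of free RNA in these low levels was not tested beyond these subtractions. Prr5l gave no value under either of them in either library. With 10% subtracted Slc24a2 also gave no value in either library, and Rnf220 none in the CBP library.

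Among the other genes Lpar1, with 3 and 4 UMIs, had a CBP log2 ratio of 1.97 (−0.60 to 4.74) in precursor-like nuclei. Bcas1 had 501 CPM in control, 667 CPM in the CBP and 478 CPM in the p300 library, a CBP log2 ratio of 0.41 (0.29 to 0.53), and Fyn had a ratio of 0.24 (0.11 to 0.36). Bcas1 was 166 CPM higher than in control there and 81.6 CPM higher in cluster 1. It was 257 CPM higher in cluster 8, 448 CPM higher in cluster 7 and 20.2 CPM higher in the microglia-like cluster. The CBP intervals of Gpr17, Itpr2, Sirt2, Enpp6 and Lpar1 included 0, that of Gpr17 being −0.36 to 0.64. In the p300 library Gpr17 was at −0.37 (−0.70 to −0.03). At the finer resolution a cluster led by Gm2164, all of it precursor-like, held 562 control, 65 CBP and 1348 p300 nuclei. Of the nuclei of another, led by Gpr149, 67.4% were precursor-like, and it held 609, 597 and 461 nuclei. With the libraries together Bcas1 had 363 CPM in the first and 751 CPM in the second. Rnf220 had 30.9 and 47.6 CPM there and Itpr2 260 and 252 CPM. The part of this makeup in the precursor-like ratios was not tested.

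In oligodendrocyte-like nuclei none of the 9 genes with at least 100 UMIs was 2-fold higher in the CBP library, where 1.47% of all genes were. Of these 9, Itpr2 had the ratios furthest from 0. It had 189 CPM in control, 113 CPM in the CBP and 91.9 CPM in the p300 library, with log2 ratios of −0.74 (−1.02 to −0.46) and −1.04 (−1.41 to −0.68). It was the 1 gene of the 9 that was 2-fold lower in the p300 library, against 0.477% of all genes, and stood at −0.99 when the 10 genes were kept in the clustering. At the finer resolution Itpr2 was far higher in the Thsd4-led than in the Prr5l-led cluster, and the Thsd4-led cluster held 46 control, 194 CBP and 32 p300 nuclei against 115, 293 and 160 in the other. It was thus a larger part of CBP and a smaller part of p300 nuclei than of control nuclei, while Itpr2 was lower in both ablated libraries. The part of this makeup in the ratios of Itpr2 was not tested.

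The genes that peak in this cluster split between the libraries. Rnf220 was higher than control in both, with log2 ratios of 0.32 (0.26 to 0.38) and 0.31 (0.24 to 0.37). Slc24a2 had −0.31 in the CBP and 0.26 in the p300 library, and Prr5l −0.32 and 0.32, with no interval that included 0. The 2 ablated libraries were thus on opposite sides of the same control for Slc24a2 and Prr5l, by less than 2-fold each. At the finer resolution both genes were lower in the Thsd4-led than in the Prr5l-led cluster, at 3701 against 6371 CPM and 760 against 2718 CPM. The Thsd4-led cluster was a larger part of CBP and a smaller part of p300 nuclei than of control nuclei here. The part of this makeup in these ratios was not tested.

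**Figure D5:**
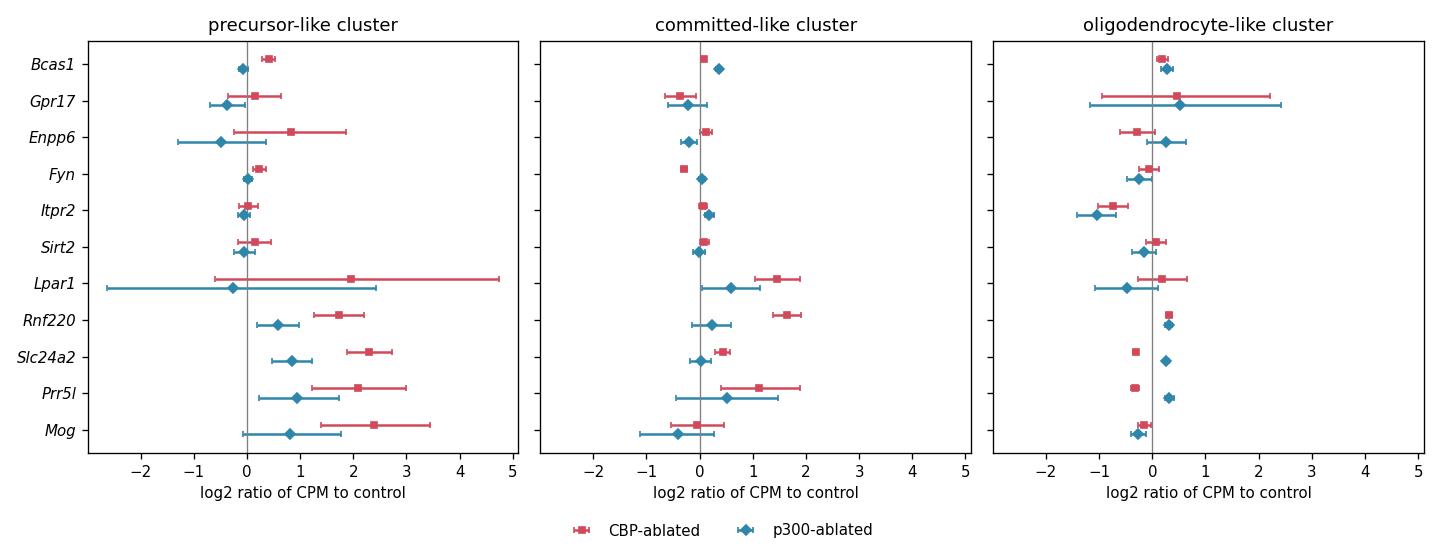
Log2 ratio of CPM to control (horizontal axes) of the 10 genes and Mog within the precursor-like, committed-like and oligodendrocyte-like clusters, for the CBP (squares) and p300 (diamonds) library, with 95% counting intervals. In the committed-like panel Rnf220 at 1.64 and Lpar1 at 1.45 stand apart in the CBP library while Mog is at −0.05. Mog is the only gene of the myelin list drawn, and the median of that list there was 0.52. In the precursor-like panel Slc24a2, Prr5l, Rnf220 and Mog are all past 1.7 in the CBP library.

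In nuclei picked by a single gate gene, the ratios mix these levels with the makeup of the gate. Among Pdgfra-positive nuclei 4 of 9 genes were 2-fold higher in the CBP library (1.48% of all genes) and 1 of 9, Rnf220, in the p300 library (0.405%), at a log2 ratio of 1.00 that 3 other settings brought to between 0.66 and 0.97. Slc24a2 had 103 CPM in control, 379.6 CPM in the CBP and 191 CPM in the p300 library there. Among Bcas1-positive nuclei 2 of 9 were 2-fold higher in the CBP library (1.87%), Rnf220 at a log2 ratio of 1.63 and Lpar1 at 1.63. Of the Pdgfra-positive nuclei, 1.80% in control, 9.44% in the CBP and 3.42% in the p300 library were also Mog-positive.

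Among Enpp6-positive nuclei Lpar1 was the 1 gene of 9 that was 2-fold higher in the CBP library (0.912% of all genes), with 45.7 CPM in control, 108 CPM in the CBP and 61.9 CPM in the p300 library. Thinned to 1500 UMIs, its log2 ratio of 1.24 became 0.72. Rnf220 had 738, 1422 and 1613 CPM and Prr5l 539.5, 542 and 1154 CPM, and these 2 were 2-fold higher in the p300 library (1.45%). Counting each nucleus at its last gate took out the Mog-positive nuclei, and changed this picture. The p300 log2 ratios of Rnf220 and Prr5l were then 0.18 (−0.14 to 0.49) and 0.05 (−0.57 to 0.67), and that of Lpar1 was 1.13 (0.56 to 1.71). In the CBP library Rnf220 then had 667 CPM against 149 CPM in control, a log2 ratio of 2.16 (1.94 to 2.39), and Lpar1 1.64 (1.17 to 2.15).

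Among Mog-positive nuclei none of 9 genes was 2-fold higher in the CBP library (1.32% of all genes), and Lpar1 was 2-fold lower in the p300 library (0.398%), with 55.9 CPM in control, 54.8 CPM in the CBP and 26.6 CPM in the p300 library. Thinned to 1500 UMIs, this log2 ratio of −1.07 became −0.60. Enpp6 had 198 CPM in control and 125 CPM in the CBP library, a log2 ratio of −0.67 (−0.91 to −0.43). Itpr2 and Fyn were also lower in both ablated libraries, Itpr2 by ratios of −0.61 and −0.53 and Fyn by −0.48 and −0.42.

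Nuclei were also set along an axis, the share of myelin-list UMIs among the UMIs of the precursor and myelin lists. Nuclei with at least 10 such UMIs and at least 1 UMI of a gate gene were used. Bcas1 and Enpp6 are gate genes, so their levels along the axis partly follow from this choice and are a description only. The lowest of 5 equal bins held 92.3% of control, 73.1% of CBP and 93.2% of p300 nuclei, so the axis was mostly empty in its middle. Lpar1 was highest in the second bin in each library, with 159, 193 and 103 CPM against 6.66, 27.4 and 6.53 CPM in the first. Enpp6 and Sirt2 were also highest in the second bin in all 3 libraries, a bin of 21 nuclei in control. Bcas1, Fyn and Gpr17 in the CBP library and Gpr17 and Itpr2 in the p300 library were highest in the first bin. Itpr2 in the CBP and Fyn in the p300 library were highest in the second, and Bcas1 in the p300 library in the third. In control these genes were highest in the second among bins of at least 20 nuclei, Fyn and Gpr17 at 1.10 and 1.01 times the first. Rnf220 was highest in the last bin in all 3, from 34.6 to 3485 CPM in control, from 99.1 to 4679 CPM in the CBP and from 40.9 to 5037 CPM in the p300 library. The second bin held 21, 106 and 27 nuclei and the third 14, 74 and 35. With the most abundant gene of each list left out, the second bin held 17, 54 and 11 nuclei. Enpp6 was still highest there in all 3 libraries, with 345, 291 and 179.6 CPM, Sirt2 in control and the CBP library, Lpar1 in control and the p300 library, and Rnf220 was still highest in the last bin. With bins of under 20 nuclei set aside, the highest bins of Enpp6, Sirt2 and Lpar1 differed between the libraries. Gpr17, Fyn and Itpr2 were then highest in the first bin in all 3 libraries. Bcas1 was highest there in control and the CBP library, and in the fourth bin in the p300 library.

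Other genes of the lineage were read from 3 lists. Of 9 myelin genes 9 were 2-fold higher over all CBP nuclei than over control nuclei (2.89% of all genes), with a median log2 ratio of 2.03. None was over p300 nuclei (0.694% of all genes), with a median of 0.00. Mag, Mobp and Mog, which encode proteins of the sheath, had log2 ratios of 2.14, 2.79 and 1.92. Of 9 other genes of newly formed oligodendrocytes with at least 100 UMIs 4 were 2-fold higher in the CBP library (2.89% of all genes), with a median of 0.83 over the 9. In the p300 library 1 of the 9, 9630013A20Rik, was 2-fold lower, at −1.29, as were 2.12% of all genes. Tmem163, a zinc transporter, had a log2 ratio of 1.30, Cnksr3 of 1.72, the transcription factor Tcf7l2 of 0.83 and Tns3 of 0.63. Of 8 precursor genes none was 2-fold higher or lower in either library. Lhfpl3 had −0.17 in the CBP and 0.62 in the p300 library, Tnr 0.16 and 0.43, Pcdh15 −0.21 and 0.46, and Ptprz1 −0.78 and 0.01. The 10 genes, with a median of 1.16, lay between the newly formed and the myelin list in the CBP library. These medians include the astrocyte-like cluster of control nuclei, without which that of the 10 was 0.79. No values of the lists without it are given here.

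Genes of like pattern were sought by the correlation of log2(CPM + 1) over 35 sums of a cluster and a library, among 8511 genes. These sums share libraries and clusters, and the coefficients describe them only. Enpp6 went with 9530059O14Rik (Pearson's r = 0.90) and with Myrf (0.87), the transcription factor that starts the myelin programme. Bcas1 went with Bcas1os2 (0.91), a gene inside Bcas1 on the opposite strand whose reads may not be told apart from those of Bcas1, and with Fa2h (0.91), a hydroxylase of myelin lipids. Itpr2 went with Arhgap24 and Epb41l2, Sirt2 with Nrd1 and Mpzl1, Fyn with Camsap2 and Zkscan1, Lpar1 with Stxbp3 and Pacs2, and Gpr17 with Gtf2f2 and Acap3, with r between 0.81 and 0.90.

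Genes of the sheath were among those closest to the later genes. Rnf220 was closest to Cldn14 (0.95) and Mag (0.94), Slc24a2 was at 0.94 with Klhl2, and Prr5l was closest to Atp8b1 (0.89) and Trf (0.88), the gene of transferrin. Between members of the 10, Rnf220 and Slc24a2 were at 0.96 and Enpp6 and Sirt2 at 0.88, while Fyn and Prr5l were at −0.24. Among the genes closest to the mean of the 10 were the carboxypeptidase gene Cpm (0.93), Mbp (0.93), Marchf8 and Cldn11 (both 0.92).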

How the data were processed

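Per the labels and methods, the authors sequenced Chromium 3′ v3 libraries, checked reads with FastQC 0.11.9, aligned them to GRCm38 with Cell Ranger 3.1 counting exons and introns, and used Seurat 2.3.4. The deposited matrices hold raw UMI counts per gene and nucleus, not normalized, and no per-sample column was left unused (0). Whether the counting used strand is not given in the sources used here. The 10 genes, gene lists and tests were chosen with earlier results of these data known.

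UMIs were summed per library, per gate and per cluster and given as CPM with exact Poisson intervals, ratios with conditional binomial and shares with Clopper-Pearson intervals. A count of 0 allows 3 counts, or 0.184, 0.235 and 0.159 CPM per library. Called past 2-fold means a log2 ratio past 1 for a gene whose 2 sums held at least 100 UMIs. Clusters came from Seurat 5.3.0 (R 4.3.3; 1608 variable genes without the 10, 20 components, resolution 0.6, seed 1), and named by 10% detection, 60% of a marker list and at least 3 markers. Scrublet in scanpy 1.11.5 marked doublets at 0.8% per 1000 nuclei (191, 73 and 173), which were kept. Other steps ran in Python 3.11.15 with scipy 1.17.1, pandas 2.3.3, numpy 2.4.6 and matplotlib 3.10.9. The ratio function was tested on simulated data.

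Genes named were the 10, Pdgfra, Mog, up to 4 of each list by UMIs, and 2 genes of closest pattern for each of the 10 and 5 for their mean (genes with at least 500 UMIs, sums of at least 50 nuclei). Leading genes of clusters and the floxed genes were named outside this rule. The listed symbol Tmem2 was found as Cemip2 through RefSeq synonyms. Values of 1 gene that this rule named are not reported here.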

Additional observations from a re-analysis of the deposited data

Results flagged for a closer look

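Slc24a2, Prr5l and Itpr2 had ratios of opposite sign in 2 clusters of the same library, and the difference between the clusters was not tested. Slc24a2 in the CBP library had a log2 ratio to control of 2.30 in precursor-like and −0.31 in oligodendrocyte-like nuclei. Prr5l in the same library had 2.09 and −0.32. Itpr2 in the p300 library had 0.19 in committed-like and −1.04 in oligodendrocyte-like nuclei.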

How the results depend on the processing

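No paired analysis was possible because each condition had 1 library, and for the same reason no replicate could be left out. Of 1149 values of single ratios of the 10 genes under another setting 211 left the counting interval of the main value. Of 177 values for ratios past 2-fold 15 came under 2-fold, 1 of them with the opposite sign. This was Prr5l in committed-like CBP nuclei, −0.28 with 5% of the library profile subtracted as free RNA, a setting added after the data were seen. Settings under which a ratio gave no value are in neither count, such as Prr5l in precursor-like CBP nuclei with free RNA subtracted.

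The median log2 ratio of the 10 genes, or of the others where a gene set the gate, moved past the medians of their interval bounds as follows. Over all nuclei without the astrocyte-like cluster, of control nuclei only, it was 0.79 in the CBP library (1.16 with it) and −0.40 in the p300 library (−0.13), and Bcas1 and Enpp6 at 0.78 and 0.80 then missed 2-fold in the CBP library while Enpp6 in the p300 library went from −0.74 to −1.11, past 2-fold. In Pdgfra-positive CBP nuclei it was 1.30 thinned (1.05 unthinned). In Bcas1-positive nuclei it was 0.10 (CBP) and −0.53 (p300) at a gate of 2 UMIs, 0.22 centred (CBP) and −0.56 in lineage clusters only (p300), from 0.33 and −0.45. In Enpp6-positive CBP nuclei it was 0.15 thinned, −0.10 in lineage clusters only and −0.086 centred, and in p300 ones −0.058 at 2 UMIs, −0.075 by last gate and 0.069 thinned, from 0.0063 and −0.13. In committed-like CBP nuclei it was −0.11 at resolution 1.2, where only the Gm32531-led cluster met the marker list, and −0.011 centred, from 0.10. The causes were not tested.

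Rnf220 in committed-like CBP nuclei ran from 1.26 to 1.65 over 8 settings, 1.57 without called doublets and 1.32 with 10% free RNA subtracted. In precursor-like CBP nuclei Rnf220 was 0.75 with 5% subtracted. Prr5l gave no value there, and Slc24a2 moved the other way, to 3.53 (CBP) and 1.86 (p300). Rnf220 in precursor-like p300 nuclei was 1.71 with 10% subtracted. At 10% Rnf220 in the CBP library and Slc24a2 in both ablated libraries gave no value there. Subtracting free RNA leaves ratios over all nuclei as they are by construction. Depth limits Lpar1, with 59 UMIs in committed-like control nuclei, and Gpr17, with 5 in oligodendrocyte-like ones.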
